A study of Mus musculus with 2 samples.

Results

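The genes described here are 10 nuclear receptors that sense fatty acids, oxysterols, retinoids, thyroid hormone or vitamin D, or that pair with such sensors, other than Pparg: Ppara, Ppard, Nr1h3, Rara, Rarb, Rarg, Rxrg, Nr2f2, Thra and Vdr. They were taken by symbol from a table of read counts for 46095 genes, and all 10 were found. All 10 were also among the 17356 genes tested, for which the libraries together held 10 counts or more.

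Nuclear receptors are transcription factors with a DNA-binding domain and, in most members, a pocket for a small lipophilic ligand. Most of the receptors described here bind DNA as a heterodimer with a retinoid X receptor (RXR), at repeats of a short hexamer whose spacing helps to set which receptor binds. Binding of a ligand exchanges corepressors for coactivators and so changes transcription of the target gene. In fat cells PPARγ, encoded by Pparg, drives differentiation, while the other receptors tune fatty acid oxidation, sterol efflux, lipogenesis and the commitment of precursors.

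The RNA came from C3H10 cells (C3H/10T1/2), a mouse embryonic mesenchymal line that can form adipocytes. The labels give the strain as C57BL/6. One group was transfected with a negative control antisense oligonucleotide (ASO) and the other with an ASO against MALAT1, a long noncoding RNA kept in the nucleus, each at 100 nM. Each group holds 1 library, collected at day 6 of differentiation. Both groups were otherwise treated alike: induction with IBMX (a phosphodiesterase inhibitor), dexamethasone (a ligand of the glucocorticoid receptor), troglitazone (a ligand of PPARγ) and insulin, then insulin alone, in medium with serum. Ligands of nuclear receptors were thus supplied to the control cells as well, and the sources used here do not say which MALAT1 ASO the sequenced cells had received.

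The libraries had 58147539 counts (control) and 61653549 counts (MALAT1 knockdown), and detected 21111 and 21143 genes. Levels are given as CPM, each count divided by the TMM-scaled library size (on the usual CPM scale), and levels of different genes are compared as CPM per kb of annotated exon. Malat1 itself (chr19, 5795690 to 5802672, minus strand, GRCm38) had 170402 counts in the control library and 45396 in the knockdown library, which is 24.7% of the control level in CPM. Adipocyte markers were present in both libraries, at a summed 7479 CPM in the control and 2965 CPM in the knockdown, and 13 of the 14 tested were called lower. Fibroblast and preadipocyte markers summed to 19538 CPM and 21337 CPM, with 0 called lower and 1 called higher of 14 tested. Smooth muscle markers summed to 238 and 267 CPM, osteoblast and chondrocyte markers to 160 and 218 CPM, immune cell markers to 9.31 and 10.8 CPM and endothelial markers to 0.849 and 0.740 CPM, and 0 genes of these lists were called. The smooth muscle sum was mostly Acta2 (228 and 261 CPM), while 3 of the 4 tested markers had negative values and the median log2 fold change was -0.54. Of the 6 immune markers, Ptprc, Adgre1 and Itgam had 0 counts in both libraries. The others had counts in both: Cd14 had 362 and 536, Cd68 had 172 and 119, and Csf1r had 3 and 13. In such bulk RNA, fewer cells of a type and less RNA per cell cannot be told apart, and the part that the adipocyte share of the culture plays in any receptor's difference was not tested.

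Promoter sequences are shown for 3 of the receptors: the 2 called lower (Nr1h3 and Ppard) and Rarb, the only one of the 9 receptors with windows to hold a direct repeat of the hexamer, searched with 0 to 5 bases between. Each window runs from 250 bases before to 50 bases after a RefSeq transcript start on GRCm38.p6 and is written 5′ to 3′ on the gene's own strand. The windows are chr2:91195067-91195366 on the minus strand for Nr1h3, chr17:28232504-28232803 on the plus strand for Ppard and chr14:16575427-16575726 on the minus strand for Rarb. The starts of the Nr1h3 and Rarb windows lie inside the annotated span of the gene, which has further transcript starts. Capitals mark a direct repeat of the receptor hexamer with its spacer. The hexamer was searched on both strands as AGGTCA or one of its variants AGTTCA and GGGTCA and GGTTCA.
Nr1h3: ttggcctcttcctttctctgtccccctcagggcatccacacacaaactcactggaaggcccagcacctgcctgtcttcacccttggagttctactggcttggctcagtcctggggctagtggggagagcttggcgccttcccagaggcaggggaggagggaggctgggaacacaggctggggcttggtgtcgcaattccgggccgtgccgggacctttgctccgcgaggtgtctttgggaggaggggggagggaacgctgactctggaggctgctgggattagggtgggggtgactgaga
Ppard: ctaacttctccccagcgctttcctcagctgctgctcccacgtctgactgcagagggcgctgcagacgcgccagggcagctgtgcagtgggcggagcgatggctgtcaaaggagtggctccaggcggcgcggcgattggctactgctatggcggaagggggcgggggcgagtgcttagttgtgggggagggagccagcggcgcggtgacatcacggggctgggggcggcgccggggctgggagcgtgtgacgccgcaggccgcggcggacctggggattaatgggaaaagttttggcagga
Rarb: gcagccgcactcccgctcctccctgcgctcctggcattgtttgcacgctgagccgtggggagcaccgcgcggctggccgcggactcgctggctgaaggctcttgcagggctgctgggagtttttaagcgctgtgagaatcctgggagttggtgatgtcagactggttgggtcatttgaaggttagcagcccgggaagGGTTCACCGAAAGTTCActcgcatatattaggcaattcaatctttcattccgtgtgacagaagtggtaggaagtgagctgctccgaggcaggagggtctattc

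The Rarb window held 3 hexamers, and a pair of them formed a direct repeat with 5 bases between (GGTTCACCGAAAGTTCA, from -53 to -37 of the start). Repeats of this spacing are the textbook arrangement bound by RAR-RXR heterodimers. A direct repeat with 5 bases between was present in 32 of 32544 different promoter windows of all genes (0.0983%). The search also took 0 to 4 bases between, and such repeats were in 68, 73, 88, 13 and 27 windows, in that order. The hexamer alone is common, with at least 1 match in 43.7% of windows, and the Nr1h3 and Ppard windows shown held 0. Of the 10 receptors 9 had windows, 15 in all, and Thra had none in the table used. These matches are letters in a window, and no binding was measured.

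Nr1h3 and Ppard were called lower in the MALAT1-knockdown library and 0 of the 10 receptors were called higher. A call required an adjusted p under 0.05 and at least a 2-fold difference. Among all genes tested, 4.09% were called lower and 2.19% were called higher, so 2 of 10 stands against that background. Without the fold threshold, 4 receptors were lower (Nr1h3, Ppard, Rara and Thra) and 3 were higher (Vdr, Rarg and Nr2f2) at an adjusted p under 0.05, where 23.8% of all genes were lower and 24.2% were higher. Thra passed that adjusted p with TMM factors but not with library totals or edgeR's upper-quartile factors. The median log2 fold change was -0.11 over the 10 receptors and -0.0029 over all genes tested. The summed level of the 10 receptors was 1001 CPM in control cells and 1028 CPM after knockdown. With 1 library per group, the test, a two-sided exact binomial test of the counts with Benjamini-Hochberg adjustment, compares the libraries and not the conditions, and there is no replicate check. In edgeR's exact test, which allows for a preset biological coefficient of variation, Nr1h3 and Ppard had adjusted p of 5.63e-06 and 0.00237 at a preset of 0.1 but 0.211 and 0.285 at 0.2. The smaller differences of Rara, Thra, Vdr, Rarg and Nr2f2 had adjusted p of 0.795 to 1 already at 0.1. The intervals given are 95% limits that cover counting error only.

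**Figure D1:**
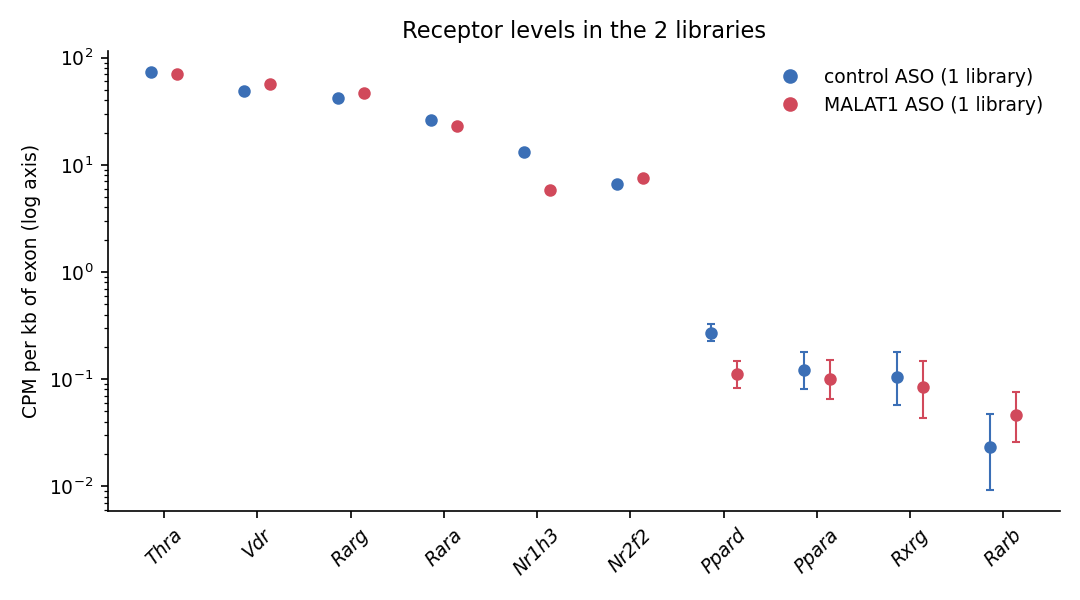
Level of each receptor in CPM per kb of annotated exon (log axis) in the control ASO library and the MALAT1 ASO library. Each point is 1 library, bars are 95% counting intervals, and the receptors span Thra at 73.1 to Rarb at 0.0230 CPM per kb in the control library.

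In the control library the receptors divided into an abundant set and a scarce set, as the plot of levels shows. The order in CPM per kb was Thra at 73.1, Vdr at 49.0, Rarg at 42.2, Rara at 26.1, Nr1h3 at 13.2 and Nr2f2 at 6.59. The scarce set followed with Ppard at 0.272, Ppara at 0.122, Rxrg at 0.106 and Rarb at 0.0230 CPM per kb. The knockdown order differed in the place of Nr1h3, which lay below Nr2f2 (5.79 against 7.56 CPM per kb). Ppara and Rxrg did not differ beyond their counting intervals in the control library, nor did Ppard, Ppara and Rxrg in the knockdown library, where the interval of Rarb also overlapped those of Ppara and Rxrg.

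Nr1h3 encodes LXRα, a receptor for oxysterols that induces genes of cholesterol efflux and lipogenesis. It lies on chr2 at 91184061 to 91202834, minus strand. Nr1h3 had 1912 counts in the control library and 905 in the knockdown library, which are 33.1 and 14.6 CPM. The knockdown level was 44.0% of the control level, with a log2 fold change of -1.19 (-1.30 to -1.07) and an adjusted p of 3.51e-97 in the exact binomial test. Its paralog Nr1h2, which encodes LXRβ and is expressed in most tissues, had 5034 and 5056 counts, with a log2 fold change of -0.10 (-0.16 to -0.04). The fold change of Nr1h3 was lower than that of Nr1h2 by a log2 difference of -1.09 (-1.21 to -0.96), with an adjusted p of 6.91e-65 in Fisher's exact test over 5 paralog pairs. These pairs were chosen after the values were seen. As a share of the CPM per kb of both LXR genes, Nr1h3 made up 33.6% in the control and 19.3% in the knockdown library. Among the 7068 tested genes with a mean of 1000 to 10000 counts, to which Nr1h3 belongs, 0.594% were called lower.

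Of 13 LXR target genes 11 were tested, 2 were called lower and 0 higher, with a median log2 fold change of -0.39. The share called lower over all genes tested was 4.09%. Scd1, a desaturase of fatty acid synthesis, had 111931 and 41856 counts (log2 fold change -1.53.) Fasn, the fatty acid synthase, had 93506 and 45888 counts (log2 fold change -1.13, interval -1.15 to -1.12). Abca1, the cholesterol efflux transporter, had 14781 and 9448 counts (log2 fold change -0.75, interval -0.79 to -0.71), which does not reach 2-fold. Of the 11 tested, 8 had negative and 3 had positive log2 fold changes. Arl4c, among the latter, had 687 and 919 counts (log2 fold change 0.31, interval 0.17 to 0.46). Apoe and Pltp had log2 fold changes of 0.03 and 0.05, with intervals that included 0. Scd1 and Fasn are also highly expressed lipogenic genes of adipocytes, whose markers summed lower in the knockdown library as given above, and the part of either was not tested.

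**Figure D2:**
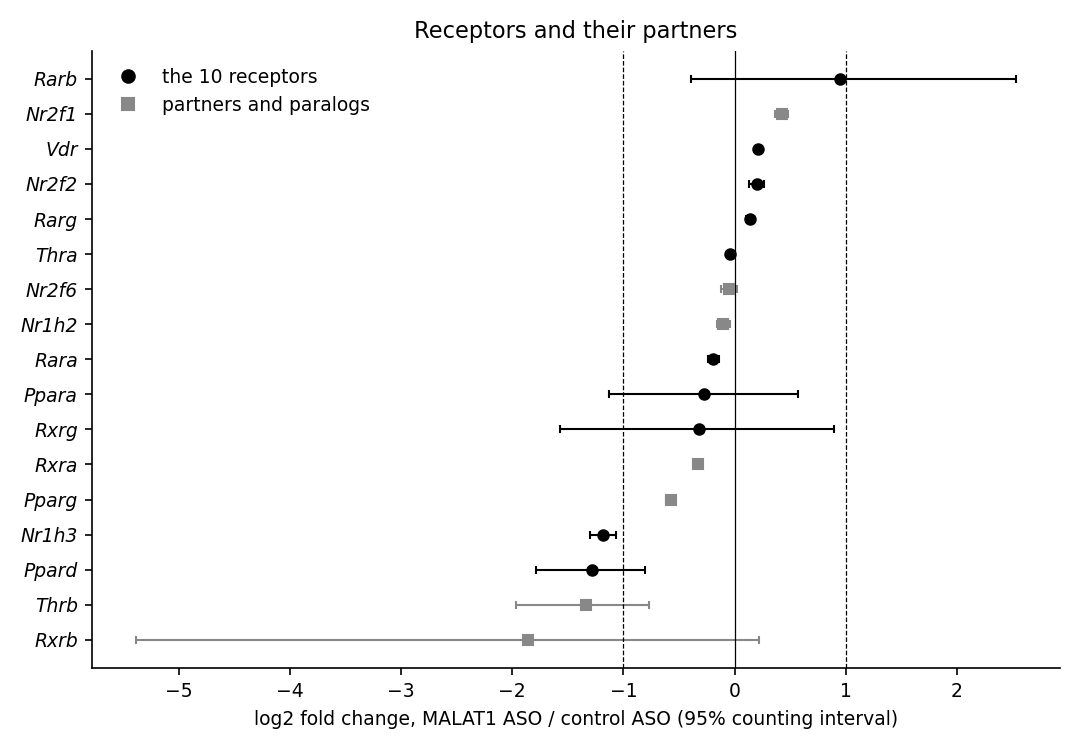
Log2 fold change of each receptor (black circles) and of the 7 partners and paralogs (grey squares), MALAT1 ASO over control ASO. Bars are 95% counting intervals and dashed lines mark 2-fold. Nr1h3 at -1.19 and Ppard at -1.28 lie past the lower line, Rara, Rarg, Nr2f2, Thra and Vdr lie within 0.21 of 0, and the intervals of Ppara, Rxrg and Rarb include 0. Of the partners and paralogs, Thrb at -1.34 and Rxrb at -1.86 also lie past the lower line, and the interval of Rxrb includes 0.

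Ppard and Ppara encode receptors for fatty acids, PPARδ and PPARα, which induce genes of fatty acid oxidation. Ppard (chr17, 28232700 to 28301474, plus strand) had 118 counts in the control and 52 in the knockdown library, which are 2.04 and 0.837 CPM. Its log2 fold change was -1.28 (-1.79 to -0.81), with an adjusted p of 1.78e-07 in the exact binomial test. Ppara (chr15, 85734983 to 85802819, plus strand) had 27 and 24 counts (log2 fold change -0.27, interval -1.13 to 0.57). That difference was not detectable at this depth (exact binomial test, adjusted p = 0.698). Pparg, the third receptor of the subfamily, had 11816 and 8552 counts (log2 fold change -0.57, interval -0.61 to -0.53), and made up 99.43% of the CPM per kb of the PPAR genes in the control and 99.55% in the knockdown library. The fold change of Ppard was lower than that of Pparg by a log2 difference of -0.72 (-1.22 to -0.23; Fisher's exact test, adjusted p = 0.00291).

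Ppard lies in a stretch of chr17 where most genes had few counts. The 20 protein-coding genes nearest to it, 10 on each side in RefSeq order, had a median of 30.3 counts (mean of the libraries) and an upper quartile of 115, against upper quartiles of 2073 to 7581 around the other receptors. Only 1 of these 20 genes exceeded 1000 counts (Rpl10a, a ribosomal protein gene, 1319 and 1184). Snrpc, a gene of the splicing machinery expressed in most cells, had 126 and 199 counts, and Srpk1, a kinase of splicing factors, had 38 and 61. Such stretches, defined after the data were seen by an upper quartile under 200 counts, hold 3.78% of the placed protein-coding genes tested, and 5.37% of the genes in them were called lower against 2.91% elsewhere, and 3.51% higher against 1.43%. Why the stretch is low was not tested, so the place of Ppard in the scarce set and the PPAR shares carry that limit. Without the stretch, 1 of 9 receptors was called lower (Nr1h3). The count of Ppard also limits it: among 3824 genes with a mean of 10 to 100 counts, 10.2% were called lower.

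**Figure D3:**
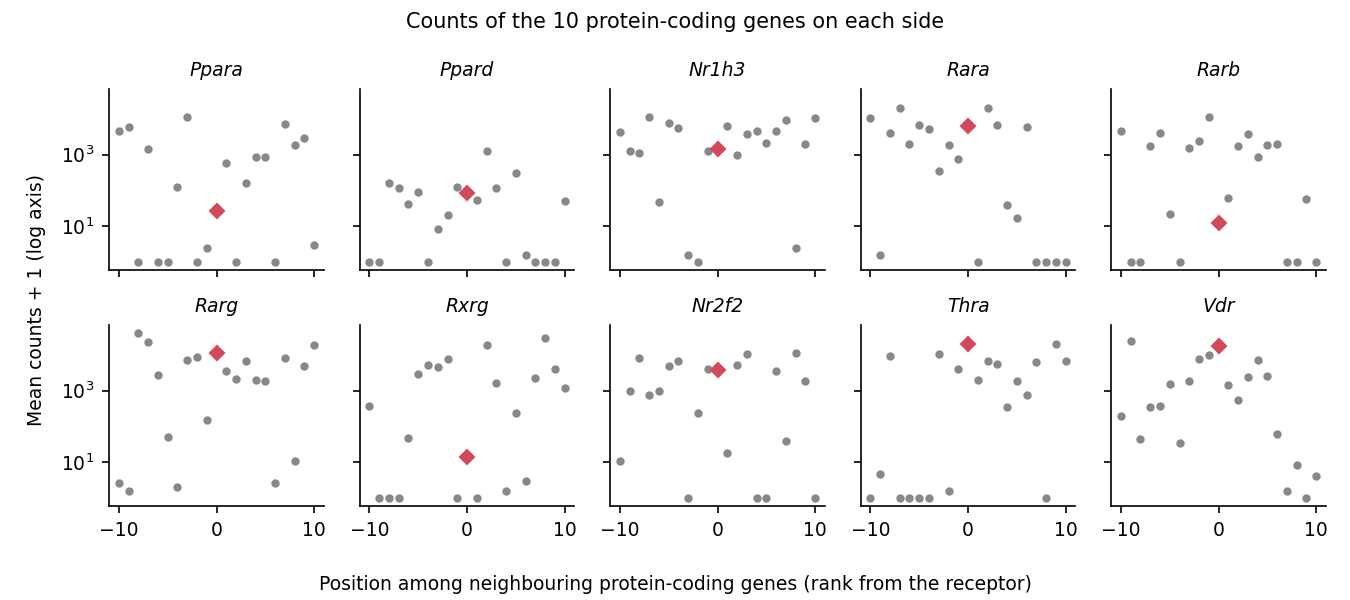
Mean counts of the 2 libraries plus 1 (log axis) of the 10 protein-coding genes on each side of each receptor, by rank of distance along the chromosome, with the receptor as a red diamond. The neighbours of Ppard have a median of 30.3 counts, and those of Nr1h3 a median of 2900.

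Of 26 PPAR target genes 23 were tested, 4 were called lower (Ucp2, Fgf21, Ucp3 and Ehhadh) and 0 higher, with a median of -0.57. The share called lower over all genes tested was 4.09%. Ucp2 and Ucp3 encode mitochondrial carriers. Ucp2 had 44 and 5 counts (log2 fold change -3.12, interval -4.94 to -1.91), and Ucp3 had 78 and 21 counts (log2 fold change -1.97, interval -2.77 to -1.29). Fgf21, a secreted metabolic hormone, had 21 counts and 1 count (log2 fold change -3.93, interval -9.87 to -1.86). Ucp2, Ucp3 and Fgf21 each had a mean of 10 to 100 counts, where 10.2% of all genes were called lower. Of the 23 tested, 18 had negative and 5 had positive log2 fold changes. Cpt1a, among the latter, had 3494 and 5191 counts (log2 fold change 0.46, interval 0.40 to 0.53). Pdk4, also positive, had 16596 and 19662 counts (log2 fold change 0.14, interval 0.11 to 0.17). PPARγ shares many of these targets, so the list does not separate the receptors.

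Of the retinoic acid receptors, Rara and Rarg differed from each other, and Rarb had too few counts for its interval to separate it from either. Rara (chr11, 98927818 to 98974942, plus strand) had 6570 counts in the control and 6198 in the knockdown library (log2 fold change -0.19, interval -0.24 to -0.14; exact binomial test, adjusted p = 7.25e-13). Rarg (chr15, 102234938 to 102257517, minus strand) had 10383 and 12299 counts (log2 fold change 0.14, interval 0.10 to 0.18; exact binomial test, adjusted p = 5.88e-12). The fold change of Rara was below that of Rarg by -0.33 on the log2 scale (-0.39 to -0.27; Fisher's exact test, adjusted p = 2.42e-24), so that Rarg went from 61.8% to 67.0% of the CPM per kb of the RAR genes. Both differences are small and, without replicates, cannot be set against the spread between cultures. Rarb (chr14, 16430839 to 16819156, minus strand) had 7 counts in the control and 15 in the knockdown library (log2 fold change 0.95, interval -0.39 to 2.53; exact binomial test, adjusted p = 0.282). Rarb is itself a textbook target of retinoic acid through the repeat shown above. Its exons overlap those of Top2b, on the opposite strand, over 1793 bases. Top2b had 10291 and 12687 counts. The libraries kept strand, but the use of strand in counting is not given in the sources used here, so that reads of Rarb and Top2b cannot be told apart there.

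Rxrg encodes RXRγ, a heterodimer partner that is common in muscle and brain. Rxrg (chr1, 167598384 to 167639623, plus strand) had 14 and 12 counts (log2 fold change -0.32, interval -1.57 to 0.89), which was not detectable as a difference at this depth (exact binomial test, adjusted p = 0.792). Rxra, which encodes RXRα, had 21626 and 18519 counts (log2 fold change -0.33, interval -0.36 to -0.30), and made up 99.8% of the CPM per kb of the RXR genes in both libraries. Rxrb had 8 and 2 counts, and also lies in a low-count stretch of chr17 (upper quartile of its neighbours 34.4 counts). The RXR shares carry that limit.

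Of 21 retinoid handling genes 14 were tested, 2 were called lower and 0 higher, with a median of -0.12. The share called lower over all genes tested was 4.09%. Rbp4, the plasma carrier of retinol, had 80 and 17 counts (log2 fold change -2.31, interval -3.19 to -1.57). Its mean lay between 10 and 100 counts, where 10.2% of all genes were called lower. Fabp5, a carrier of fatty acids and retinoic acid, had 13506 and 6188 counts (log2 fold change -1.23, interval -1.28 to -1.19). Dhrs3, which reduces retinaldehyde, had 674 and 372 counts (log2 fold change -0.96, interval -1.15 to -0.78). Of the 14 handling genes tested, 8 had negative and 6 had positive log2 fold changes. Without the fold threshold, 6 were lower and 3 higher at an adjusted p under 0.05. The 3 were Cyp26b1, Adh7 and Aldh1a1, with log2 fold changes of 0.65, 0.26 and 0.20. Of 16 retinoic acid target genes 11 were tested and 0 were called in either direction; at an adjusted p under 0.05 without the fold threshold, 3 were lower and 3 higher, with a median of -0.08. Dhrs3 is on both lists and lies in a low-count stretch (upper quartile of its neighbours 28.2 counts), and without it the medians were -0.08 for the handling genes and 0.05 for the target genes, so that the sign of the latter turned. Rarres2, which encodes the adipokine chemerin, had 6948 and 4938 counts, Tgm2, a transglutaminase, had 410 and 310 counts, and Cyp26b1, which degrades retinoic acid, had 405 and 683 counts, with log2 fold changes of -0.60, -0.51 and 0.65. The target genes thus had differences of both signs.

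Thra encodes the thyroid hormone receptor TRα, the main form in many tissues. Thra (chr11, 98740638 to 98769006, plus strand) had 19458 counts in the control library and 20415 in the knockdown library (log2 fold change -0.04, interval -0.07 to -0.01; exact binomial test, adjusted p = 0.0232). Its 3′ end overlaps Nr1d1, which encodes the clock repressor REV-ERBα on the opposite strand, over 263 exonic bases. Nr1d1 had 2367 and 1591 counts (log2 fold change -0.68, interval -0.77 to -0.59), and reads of the overlap cannot be assigned without the counting's strand setting. Thrb, the second thyroid receptor, had 83 and 35 counts and was called lower, with a log2 fold change of -1.34 (-1.97 to -0.77). The pair of Thra and Thrb was, like the others, chosen after the values were seen. It compares 1 library per group. Thra was higher relative to Thrb by a log2 difference of 1.32 (0.73 to 1.93; Fisher's exact test, adjusted p = 3.65e-06) and made up 99.7% of the CPM per kb of the TR genes in the control and 99.9% in the knockdown library. Of 13 thyroid hormone handling and target genes 7 were tested, 2 were called lower and 0 higher, with a median of -0.42. Over all genes tested, 4.09% were called lower and 2.19% higher. Of the 7 tested, 5 had negative and 2 had positive log2 fold changes. Thrsp, a regulator of lipogenesis, had 1121 and 270 counts (log2 fold change -2.16, interval -2.36 to -1.97). Slc16a10, a transporter of aromatic amino acids and thyroid hormone, had 209 and 84 counts (log2 fold change -1.42, interval -1.80 to -1.05). Me1, the malic enzyme, had 5042 and 3266 counts (log2 fold change -0.73, interval -0.80 to -0.67). Hr, among the positive ones, had 1303 and 1901 counts (log2 fold change 0.44, interval 0.34 to 0.54). Atp2a2, also positive, had 12927 and 15352 counts (log2 fold change 0.14, interval 0.11 to 0.18).

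Vdr encodes the vitamin D receptor. Vdr (chr15, 97854425 to 97910630, minus strand) had 15968 counts in the control and 19902 in the knockdown library, which are 277 and 320 CPM. Its log2 fold change of 0.21 (0.18 to 0.24; exact binomial test, adjusted p = 5.38e-42) was well below 2-fold, and no spread between replicate cultures is available to compare it with. Of 16 vitamin D handling and target genes 5 were tested and 0 were called, with a median of -0.05, or 0.04 without the gene in a low-count stretch. Spp1 (osteopontin) had 71895 and 104528 counts (log2 fold change 0.43, interval 0.42 to 0.45), and Cdkn1a (the cell cycle inhibitor p21) had 16235 and 15975 counts (log2 fold change -0.13, interval -0.16 to -0.10). Cyp24a1, the vitamin D 24-hydroxylase and a textbook target of the receptor, had 0 counts in both libraries, and the floor of 3 counts allows up to 0.0520 CPM (control) and 0.0483 CPM (knockdown).

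Nr2f2 encodes COUP-TFII, an orphan receptor of mesenchymal cells. Nr2f2 (chr7, 70351944 to 70366735, minus strand) had 3280 counts in the control and 4051 in the knockdown library (log2 fold change 0.20, interval 0.13 to 0.26; exact binomial test, adjusted p = 2.97e-08). Its paralog Nr2f1, which encodes COUP-TFI, had 4231 and 6113 counts (log2 fold change 0.42, interval 0.37 to 0.48), so that Nr2f2 was lower relative to Nr2f1 by -0.23 (-0.31 to -0.14; Fisher's exact test, adjusted p = 6.27e-07). Nr2f6 had 3088 and 3218 counts (log2 fold change -0.05, interval -0.12 to 0.02). A noncoding gene on the opposite strand, B130024G19Rik, shares 643 exonic bases with Nr2f2 and had 314 and 367 counts. Of the 7 partners and paralogs, 1 was called lower (Thrb) and 0 higher, with a median of -0.33. Over all genes tested, 4.09% were called lower. Thrb had a mean of 10 to 100 counts, where 10.2% of all genes were called lower.

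**Figure D4:**
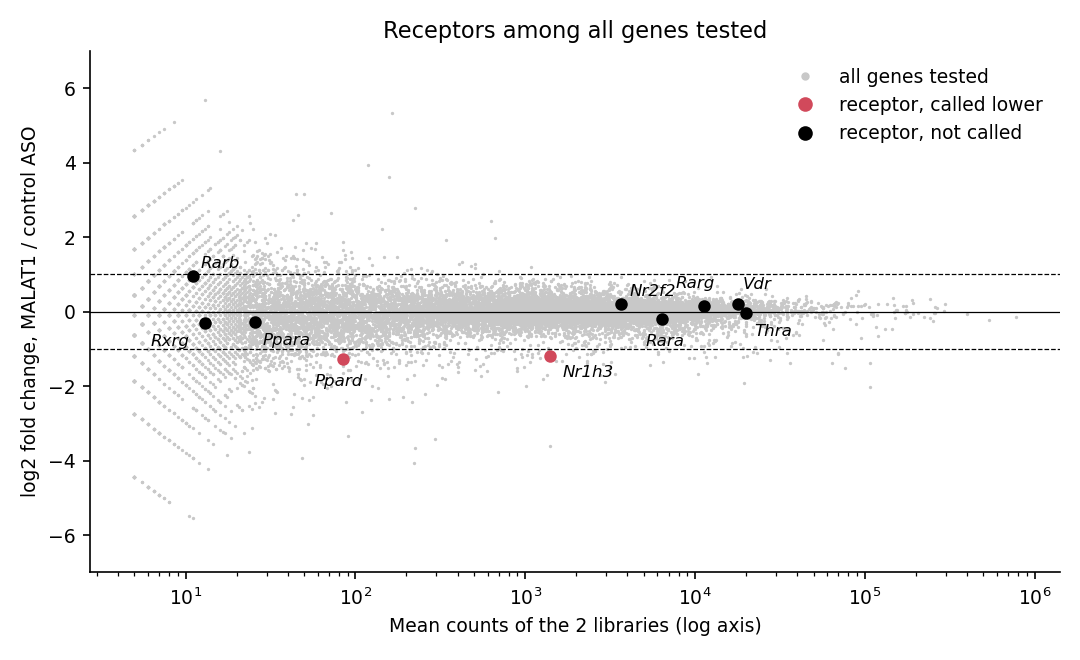
Log2 fold change of all 17356 genes tested (grey) against the mean counts of the 2 libraries (log axis), with the 10 receptors marked and dashed lines at 2-fold. Nr1h3 at -1.19 and Ppard at -1.28 lie below the lower line, and Rarb at 0.95 lies inside the lines among genes with few counts.

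In the nuclear receptor superfamily, 34 of 49 genes were tested, 4 were called lower (among them Nr1h3, Ppard and Thrb) and 0 higher, with a median of -0.17. This list includes the 10 receptors, so Nr1h3 and Ppard are counted again. The share called lower over all genes tested was 4.09%. Ppard and Thrb had means of 10 to 100 counts, where 10.2% were called lower. Without low-count stretches the median was -0.14. Of the 15 genes not tested, 10 had 0 counts in both libraries. Of the 23 coregulators that these receptors recruit, all 23 were tested and 0 were called, with a median of 0.01.

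**Figure D5:**
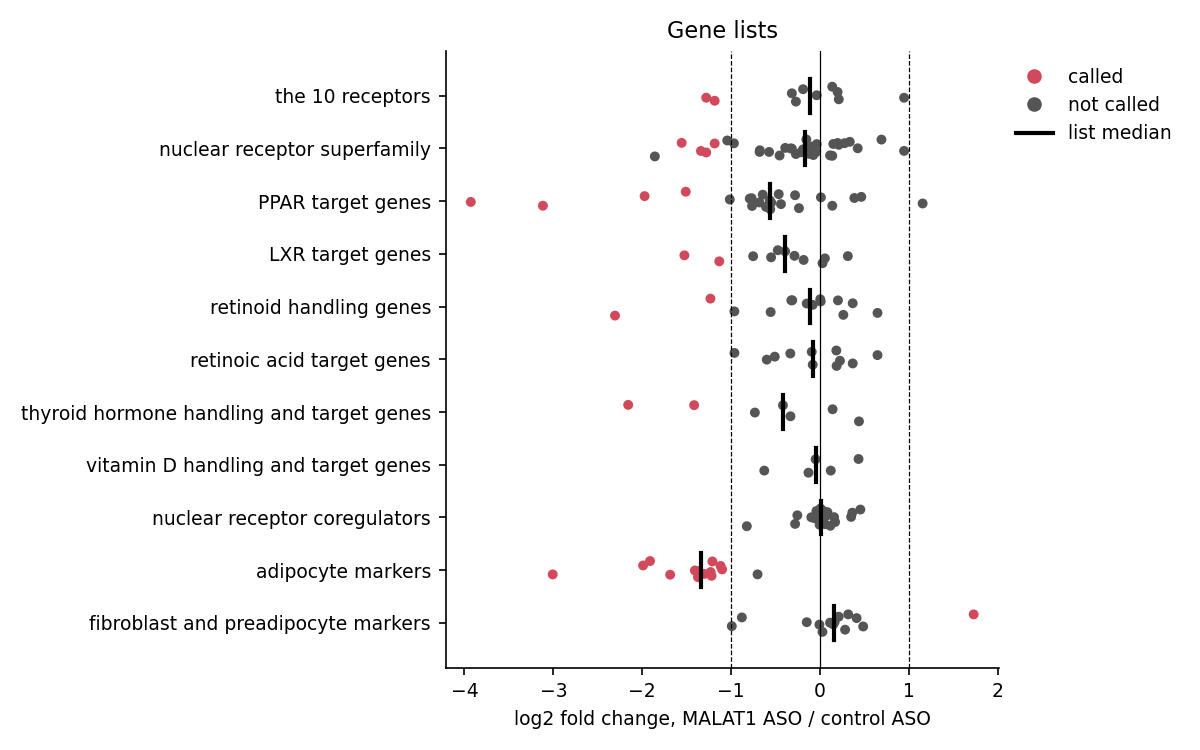
Log2 fold changes of the tested genes in the 10 receptors, 8 of the lists beside them and the adipocyte and fibroblast marker lists, 1 point a gene with called genes in red, a bar at the list's median and dashed lines at 2-fold. The median was -0.11 for the 10 receptors, -1.34 for adipocyte markers and 0.16 for fibroblast and preadipocyte markers.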

How the data were processed

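Total RNA depleted of rRNA was sequenced from 1 control ASO library and 1 MALAT1 ASO library of C3H10 cells. The authors deposited raw read counts for each gene, as whole numbers. The submitters' processing notes name HISAT2 and GRCm38; the counting tool, annotation, strand setting and treatment of multiply aligned or duplicate reads are not given in the sources used here.

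Each column was matched to a library by its label. Genes with a summed count of 10 or more were tested. Library sizes were scaled by TMM factors (0.992 control, 1.01 knockdown; edgeR 4.0.16, R 4.3.3). Log2 fold changes used a prior count of 0.5. Because 1 library per group gives no estimate of spread, each gene was tested by a two-sided exact binomial test (Python 3.11.15 with scipy 1.17.1) of its share of the counts, adjusted by Benjamini-Hochberg over all genes tested, and called at an adjusted p under 0.05 and at least 2-fold. The 95% intervals are Clopper-Pearson limits and, like the floor of 3 counts, cover counting error only. CPM per kb used the summed exons of each gene in the GENCODE annotation on GRCm38. The script was tested on simulated data with counting error alone, which says nothing of the spread between cultures. Alternatives included DESeq2 size factors (DESeq2 1.42.0).

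Named genes were all 10 receptors, their partners and paralogs, Malat1, overlapping genes, and up to 3 genes per list with adjusted p under 0.05 and intervals farthest from 0; Ehhadh, Cyp24a1, the neighbours of Ppard and the immune markers were named after their values were seen. A gene under this rule is not reported here. The receptors and lists were chosen with earlier results of these data known.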

Additional observations from a re-analysis of the deposited data

How the results depend on the processing

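No paired analysis was possible because each group holds 1 library, and no replicate could be left out. Over 14 alternatives (11 planned, the others chosen after seeing the data), 127 of 136 receptor values stayed on the same side of the call. Only the other scalings, a larger prior count and the division of counts by 4 could move a fold change. The remaining alternatives reused the reported fold changes, so their signs and values were fixed. Across all 14, 0 values changed sign. Nr1h3 ranged from -1.19 to -1.16 and Ppard from -1.28 to -1.26 in log2. The calls depend on the assumed spread between cultures. With edgeR's exact test at a preset biological coefficient of variation of 0.1, 466 genes were called lower and 201 higher. At 0.2, 95 genes were called lower and 22 higher, 0 receptors, 1 superfamily gene and 6 listed genes were called lower, and Nr1h3 and Ppard had adjusted p of 0.211 and 0.285 (unadjusted 0.00475 and 0.00806). At 0.4, 0 genes were called lower and 1 higher, with 0 receptors, 0 superfamily genes and 0 listed genes lower, and 343 genes at an unadjusted p under 0.05 and at least 2-fold. With at least 10 counts in each library, 394 genes were called lower and 168 higher, with 1 listed gene higher. With a 1.5-fold threshold, 1260 were lower and 759 higher, with 1 superfamily gene higher, and 20 listed genes lower and 1 higher. Without a fold threshold, 4139 were lower and 4207 higher, with 4 receptors lower and 3 higher, 16 superfamily genes lower and 7 higher, and 41 listed genes lower and 19 higher. With counts divided by 4, 209 were lower and 47 higher. Library totals, and a minimum-likelihood p, each gave 1 listed gene higher. Without low-count stretches, 1 receptor was called lower. By comparison, the reported settings gave 710 genes lower and 380 higher, 2 receptors, 4 superfamily genes and 10 listed genes lower. Depth limits Ppara, Rxrg and Rarb, which had at most 27 counts.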

Other observations

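Among receptors outside the lipid and hormone sensors described above, Esrra, an orphan receptor of mitochondrial genes, had 3244 counts in the control library and 2663 in the knockdown library (log2 fold change -0.39, interval -0.47 to -0.32). Nr3c2, the mineralocorticoid receptor, had 70 and 122 counts (log2 fold change 0.69, interval 0.26 to 1.14). Of the coregulators, Ppargc1b, a coactivator of mitochondrial biogenesis, had 2770 and 1685 counts (log2 fold change -0.82, interval -0.91 to -0.74). Pprc1, a related coactivator, had 3237 and 4442 counts (log2 fold change 0.35, interval 0.28 to 0.42), and Ncoa1, a steroid receptor coactivator, had 3544 and 3142 counts (log2 fold change -0.28, interval -0.35 to -0.21). None of these 5 genes passed the 2-fold threshold.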
